A study of Mus musculus with 2 samples.

Results

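The cytosolic ribosomal protein genes were followed through a single-cell RNA sequencing experiment on CD31+ cells of the mouse mesentery. Members were taken by symbol: Rpl or Rps followed by a digit, or Rplp0, Rplp1, Rplp2 and Rpsa, without rows marked as pseudogenes (16 rows) and without the S6 kinases (10 rows). Of the 28692 genes in the count tables, 87 had such a symbol, and 84 of them reached the minimum of 1000 unique molecular identifiers (UMIs, counts of single captured mRNA molecules) over both libraries. The 84 members held 34 small subunit (Rps) and 50 large subunit (Rpl) symbols. Just inside the minimum was Rps19bp1 with 3372 UMIs, and just outside were Rpl39l with 643, Rpl3l with 21 and Rpl10l with 1. In the GENCODE annotation 83 members were protein coding and 1, Rpl6l, was a processed pseudogene. Rps19bp1 encodes a protein that binds RPS19 and is not itself a ribosomal subunit, but the symbol rule takes it.

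Ribosomal proteins and ribosomal RNA build the small (40S) and the large (60S) subunit of the ribosome, and their mRNAs are among the most abundant in any growing cell. Most of these mRNAs begin with a C and a run of pyrimidines, the 5′ terminal oligopyrimidine (TOP) motif, through which mTORC1 and the RNA-binding protein LARP1 control their translation and their stability. Flcn encodes folliculin, which acts on the RagC and RagD GTPases at the lysosome, and so on mTORC1 and on the transcription factor TFE3. The members are therefore of interest in cells that lose Flcn, and they are also known to take a larger part of the mRNA in lymphocytes than in most tissue cells.

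The data were 2 libraries. One came from control mice and the other from mice with an endothelial, tamoxifen-induced deletion of Flcn (Cdh5-BAC-CreERT2; Flcn flox/flox, called Flcn iΔEC). Both were labelled C57BL/6 (by the methods, lines backcrossed to C57BL/6 J) and taken at postnatal day 8, and both received 40 µg of 4-hydroxytamoxifen under the skin on 4 occasions from P2 to P6.5. The genotype of the control mice beyond the word control is not given in the sources used here. Each library pooled cells of 3 mice selected on CD31 beads, so there was 1 library per genotype. No test was possible, cells are not replicates, and every difference between the libraries below could come from genotype, from the mice pooled or from the preparation, which cannot be told apart. Intervals are exact 95% intervals and cover counting error only. The Cre driver acts in endothelial cells, so the lymphocytes in the knockout library were not its target. Levels are given as CPM, the counts of a gene scaled to a common total of UMIs in each cell class, which for 3′ reads need no length correction.

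The control library held 6814 cells and 64639756 UMIs, the knockout library 4459 cells and 60805779 UMIs, and the median cell 7283 and 8587 UMIs. The libraries shared 6 cell barcodes. They also differed in the sex of the pooled mice: Xist was counted 9 times among control and 63462 times among knockout cells, and 4 Y-linked genes 15535 and 17 times. Flcn was at 10.2 CPM (142 UMIs) in all endothelial cells of the control and at 9.77 CPM (266 UMIs) in those of the knockout library. By class, it was at 16.4 and 10.0 CPM in lymphatic (26 and 79 UMIs), 7.33 and 11.8 CPM in venous (11 and 37 UMIs), 6.90 and 6.94 CPM in arterial (8 and 19 UMIs) and 12.3 and 10.1 CPM in high endothelial venule cells (56 and 60 UMIs). It was thus lower in the knockout library in lymphatic and high endothelial venule cells, higher in venous and alike in arterial cells, on few UMIs. T-like cells had 11.2 and 11.3 CPM and B-like cells 25.8 and 25.6 CPM. A 3′ count need not lose UMIs when inner exons are deleted, so these values check the label only in part. Classes were built by clustering and named from marker lists. The 6 described are lymphatic (LEC-like), venous (VEC-like), arterial (AEC-like) and high endothelial venule (HEV-like) endothelial cells, T-like cells and B-like cells. Despite the CD31 selection, T-like and B-like cells made up 38.8% and 35.9% of the control library and 25.3% and 30.9% of the knockout library. Markers of other endothelial types were present in each class and moved between the libraries. LEC-like cells held the lymphatic list at 7010 and 7991 CPM, the arterial list at 907 and 202 CPM and the capillary list at 2781 and 1718 CPM. VEC-like cells held the venous list at 4204 and 2507 CPM, the capillary list, above it in both libraries, at 9307 and 3924 CPM, the lymphatic list at 92.0 and 211 CPM and the fibroblast and smooth muscle list at 337 and 85.5 CPM. AEC-like cells held the arterial list at 3211 and 2709 CPM, the venous list at 1195 and 1265 CPM and the capillary list at 1041 and 677 CPM. Their fibroblast and smooth muscle list was at 746 and 742 CPM. HEV-like cells held their own list at 8617 and 3408 CPM and the lymphatic list at 1947 and 2169 CPM. Their capillary list was at 2540 and 2125 CPM and their venous list at 1528 and 1313 CPM. The part of these differences in the ribosomal protein values below was not tested.

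The start sites of members that recur in the results show what a TOP start looks like and which genes do not have it in the annotated window. Each line holds 30 letters of the coding strand from RefSeq on GRCm38.p6, of which 15 lie before the annotated start. Capitals mark an uninterrupted run of at least 6 C or T letters that opens with a C within 5 letters of that start. Rps6, at chr4:86857353-86857382 on the minus strand, and Rpl38, at chr11:114668565-114668594 on the plus strand, carried textbook runs. Rps15a lies at chr7:118116133-118116162 (minus), Rps26 at chr10:128626492-128626521 (minus), and Rps28 at chr17:33824548-33824577 (minus). Rpl23 lies at chr11:97782425-97782454 (minus), and Rps3a1 at chr3:86142654-86142683 (minus). Rps28, Rpl23 and Rps3a1 had no such run in this window.
Rps6: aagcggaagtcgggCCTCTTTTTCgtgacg
Rpl38: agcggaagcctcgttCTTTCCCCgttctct
Rps15a: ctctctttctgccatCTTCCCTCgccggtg
Rps26: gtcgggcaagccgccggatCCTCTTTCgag
Rps28: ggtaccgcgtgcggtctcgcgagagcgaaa
Rpl23: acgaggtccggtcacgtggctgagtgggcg
Rps3a1: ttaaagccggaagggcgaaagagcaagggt

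RefSeq promoters were found for 63 of the 84 members. A run of this kind was present in 27 of the 63 members (42.9%) and in 3229 of 27025 genes with a promoter (11.9%). On the opposite strand the same search found it in 7.94% of members and 15.1% of all genes. The annotated start itself was a C in 34.9% of members and 18.9% of all genes. The E-box letters CACGTG, the core of the sites that TFE3 and related factors bind, read the same on both strands. They occurred in the promoters (250 letters before and 50 from the start) of 6 of 63 members (9.52%) and in 8.09% of all genes. These 6 members were Rpl23, Rps19, Rpl19, Rpl13a, Rpl34 and Rpl14. The longer form TCACGTGA occurred in 1 member, Rpl34 (1.59%, against 1.12% of all genes), and the full CLEAR motif, which extends it on both sides, in 0 of 63 (0.37% of all genes). A match is a description of letters and not a site.

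Ribosomal protein genes took 30.8% of all UMIs in the control library (19895812 UMIs) and 27.4% in the knockout library (16630577 UMIs). These totals mixed cell classes whose shares lay far apart, and the libraries held different proportions of the classes. T-like cells had the highest share of the 6 classes, 39.4% in the control and 41.1% in the knockout library. B-like cells followed with 32.8% and 35.7%. HEV-like cells stood at 24.0% and 23.3%, higher than the other endothelial classes. LEC-like cells had 16.1% and 19.2%, VEC-like cells 15.8% and 19.4%, and AEC-like cells 13.2% and 16.8%. T-like over LEC-like cells the share was 2.45-fold in the control (2.44 to 2.46) and 2.14-fold in the knockout library. The order T, B, HEV, then LEC and VEC, then AEC held in both libraries, except that LEC-like and VEC-like cells changed places: VEC over LEC was 0.983 in the control and 1.01 in the knockout library. These neighbours in the order differed by less than the quartiles of their single cells.

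**Figure D1:**
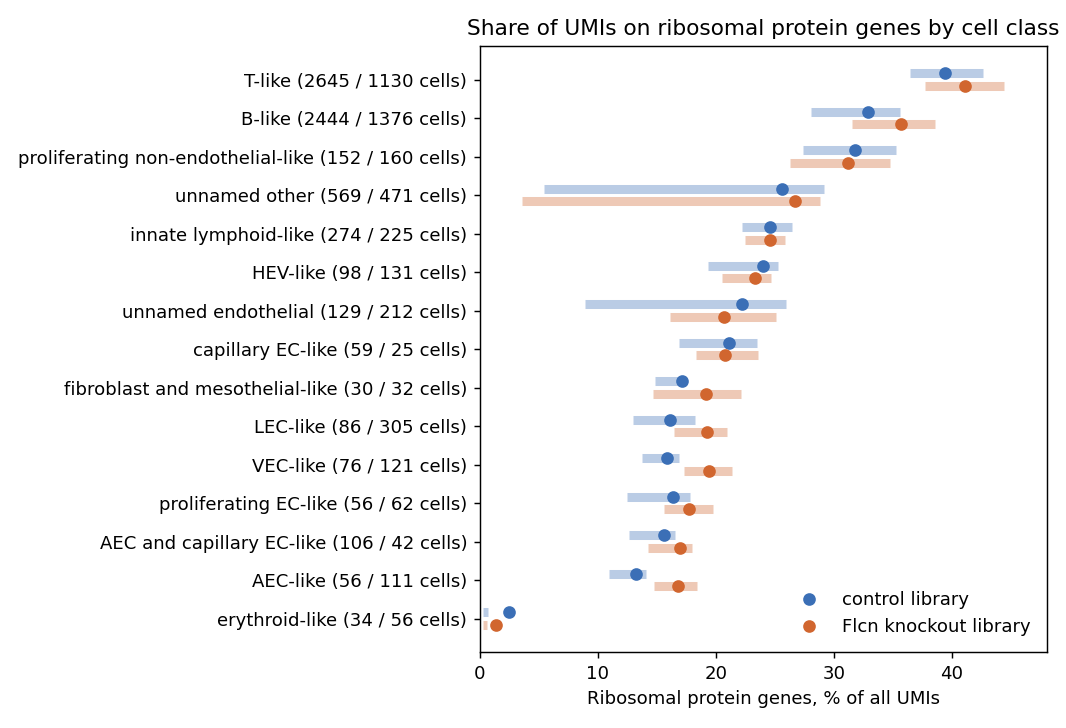
Share of UMIs on ribosomal protein genes (%, x axis) for each cell class and library. Points give the share over all UMIs of a class and bars the quartiles over its single cells, and T-like cells sit at 39.4% and 41.1% against 13.2% and 16.8% in AEC-like cells.

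Smaller classes filled in the range. Innate lymphoid-like cells stood at 24.5% and 24.6% and capillary endothelial-like cells at 21.1% and 20.7%. Fibroblast and mesothelial-like cells were at 17.2% and 19.1%, proliferating endothelial-like cells at 16.4% and 17.7%, and proliferating non-endothelial-like cells at 31.8% and 31.2%. Erythroid-like cells, which are filled with hemoglobin mRNA (89.8% and 93.4% of their UMIs), had only 2.49% and 1.37%, and their median cell had 0.36% and 0.35%. Those values bound what free RNA of the suspension gave in the median erythroid-like cell.

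Between the libraries, LEC-like, VEC-like and AEC-like cells had higher shares in the knockout, and HEV-like and capillary endothelial-like cells did not. The knockout over control ratio was 1.19 (1.19 to 1.20) in LEC-like cells, which is a difference of 3.12 percentage points over 86 control and 305 knockout cells. It was 1.23 (1.22 to 1.24) in VEC-like cells (76 and 121 cells, 3.62 points) and 1.27 (1.26 to 1.28) in AEC-like cells (56 and 111 cells, 3.56 points). In HEV-like cells it was 0.971 (0.969 to 0.973; 98 and 131 cells). The lymphocytes, which the Cre driver does not target, were also higher in the knockout library, by a factor of 1.04 in T-like and 1.09 in B-like cells. Fibroblast and mesothelial-like cells were at 1.12, but innate lymphoid-like cells at 1.002 and proliferating non-endothelial-like cells at 0.981. Of the remaining endothelial classes, capillary endothelial-like cells were at 0.984 (0.977 to 0.992; 59 and 25 cells), a class with both arterial and capillary markers at 1.09 (106 and 42 cells), and proliferating endothelial-like cells at 1.08. Over all endothelial cells, the unnamed ones (0.933) included, the ratio was 1.03. Among the unnamed ones, a cluster of 46 cells (17.5%) was in the knockout library only. Another of 14 cells (10.2%) was in the control library only, so the value of 0.933 compares different clusters in part. HEV-like cells gave 32.8% of the endothelial UMIs in the control and 21.8% in the knockout library, and LEC-like cells 11.4% and 29.0%.

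The difference was present across single cells and not carried by a few. In LEC-like cells the quartiles were 12.97% and 18.2% around a median of 15.5% in the control, and 16.5% and 20.97% around 18.8% in the knockout library. Of the knockout cells, 257 of 305 (84.3%) in the LEC-like class, 105 of 121 (86.8%) in the VEC-like class and 101 of 111 (91.0%) in the AEC-like class lay above the control median of their class. This was so for 67 of 131 HEV-like cells (51.1%), for 706 of 1130 T-like cells (62.5%) and for 1005 of 1376 B-like cells (73.0%). The LEC-like class consisted of 3 clusters, and the share was higher in the knockout library in each. It was 17.4% and 20.6% in the largest (47 and 162 cells), 12.98% and 17.2% in the next (23 and 118 cells) and 17.1% and 19.2% in the smallest (16 and 25 cells).

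Depth and lymphocyte RNA moved with some of these values. Median depth in LEC-like cells was 13783 UMIs for the control and 23045 for the knockout library, and in AEC-like cells 14440 and 18024. In cells of 10000 to 30000 UMIs the shares were 15.1% and 18.6% in LEC-like, 15.9% and 19.8% in VEC-like and 13.1% and 16.4% in AEC-like cells. These are differences of 3.51, 3.89 and 3.30 percentage points, against 3.12, 3.62 and 3.56 points over all cells of the class. Over 30000 UMIs they were 2.26, 3.73 and 3.46 points, on 10, 11 and 10 control cells, and at 3000 to 10000 UMIs 1.95, -0.88 and 4.46 points, on 15, 11 and 12 control cells. The bins are wide, and the part of depth was not tested. HEV-like cells of 10000 to 30000 UMIs had 21.3% and 21.7% (35 and 46 cells). Those over 30000 UMIs had 24.5% and 23.6% (58 and 83 cells), so the direction in HEV-like cells differed between these bins. T-like cells had 39.8% and 41.5% at 3000 to 10000 UMIs and 38.7% and 40.4% at 10000 to 30000 UMIs. HEV-like cells carried more T and B cell marker RNA in the control library. Their 8 T cell markers summed to 479 and 296 CPM and their 7 B cell markers to 454 and 149 CPM. In LEC-like cells these markers summed to 62.3 and 26.8 CPM and to 42.2 and 50.8 CPM. The innate lymphoid and NK markers of HEV-like cells went the other way, at 270 and 319 CPM. Capillary endothelial-like cells held the T cell markers at 776 and 523 CPM and the B cell markers at 63.8 and 44.7 CPM. The part of lymphocyte RNA in the HEV-like and capillary endothelial-like shares was not tested. Only 13 and 22 HEV-like cells had no UMI of Ptprc, Cd79a or Cd3e. LEC-like and AEC-like cells without such a UMI gave ratios of 1.23 and 1.31.

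**Figure D2:**
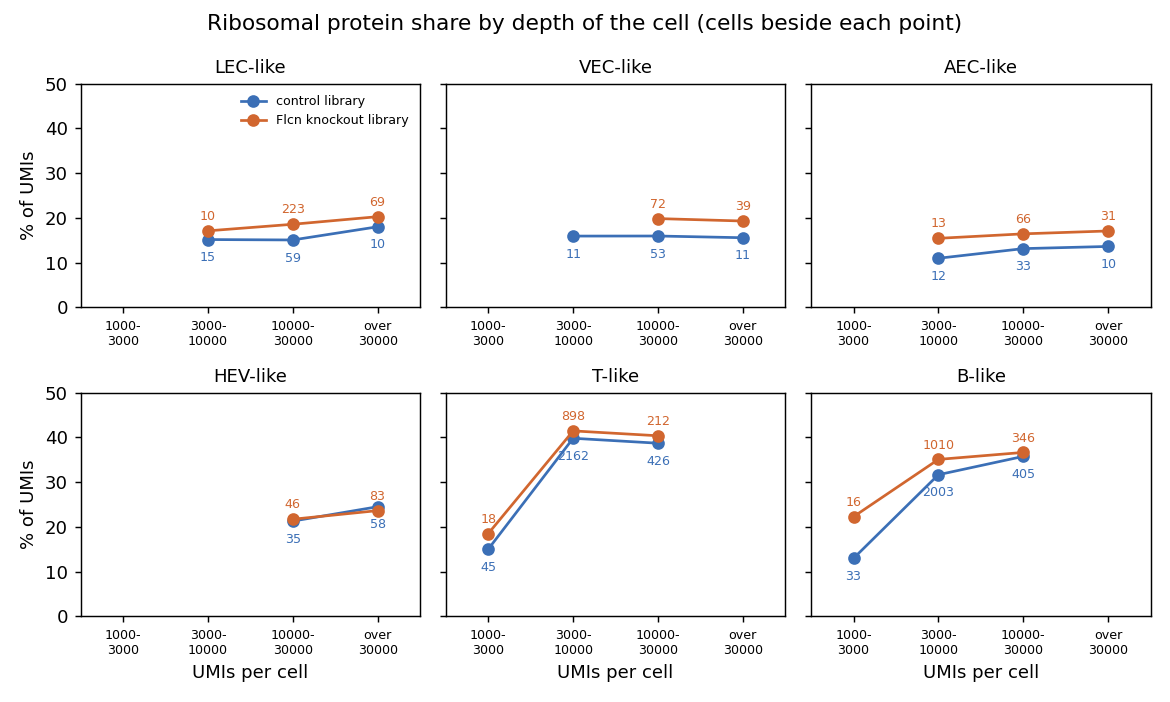
Share of UMIs on ribosomal protein genes (%, y axis) by depth of the cell (UMIs per cell, x axis, 4 bins) in each of the 6 classes, with the number of cells beside each point. At 10000 to 30000 UMIs the knockout library lies above the control in LEC-like (18.6% against 15.1%), VEC-like and AEC-like cells, and HEV-like cells stand at 21.7% and 21.3%.

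Other signals that moved between the libraries did so in another pattern. The summed heat shock list was 1.06-fold higher in LEC-like, 1.54-fold in VEC-like, 1.42-fold in AEC-like and 1.75-fold in HEV-like cells of the knockout library, and 1.98-fold and 2.39-fold in T-like and B-like cells. The immediate early genes, which tissue dissociation induces, stood at 0.574 of the control level in LEC-like and 0.611 in VEC-like cells but at 0.996 in AEC-like and 0.954 in HEV-like cells. Mitochondrial UMIs made up 4.10% and 4.09% in LEC-like, 3.04% and 3.51% in VEC-like, 3.45% and 3.21% in AEC-like and 3.44% and 3.29% in HEV-like cells. The part of handling in the ribosomal protein shares was not tested.

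Gene by gene, the difference in LEC-like, VEC-like and AEC-like cells was broad and small. All 84 members had at least 50 UMIs in each of the 6 classes. A member was counted past the fold rule when its CPM differed at least 1.5-fold between the libraries, with 1 count added. In LEC-like cells 78 of 84 members were above a ratio of 1, where 32.2% of all 9606 genes measured were, and the median log2 ratio was 0.22 for members and -0.21 for all genes. Past 1.5-fold, 3 members were higher (7.61% of all genes) and 0 lower (21.8% of all genes). The 6 members below a ratio of 1 were Rpl14, Rpl7a, Rpl36al, Rps27rt, Rpl7l1 and Rps19bp1.

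VEC-like cells had 81 of 84 members above 1 (41.7% of all genes), with a median log2 ratio of 0.27 against -0.09 for all genes. Past the fold rule, 3 members were higher (8.31% of all genes) and 1 was lower (14.8% of all genes). In AEC-like cells 81 members were above 1 (40% of all genes), the median was 0.32 against -0.10, and 1 member was higher past the fold (7.26% of all genes) and 0 lower (12% of all genes). The 3 members below 1 were the same in VEC-like and AEC-like cells, Rps27rt, Rpl6l and Rps19bp1. Altogether 77 of 84 members were above 1 in LEC-like, VEC-like and AEC-like cells. The same joint count was not made over all genes.

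The other classes differed from these. HEV-like cells had 22 of 84 members above 1 (45.8% of all genes) and a median log2 ratio of -0.06, close to the -0.03 of all genes. There, 1 member was higher past the fold (6.11% of all genes) and 0 lower (7.22% of all genes). T-like cells had 63 members above 1 (41.4% of all genes) and a median of 0.04, and B-like cells 74 (36.5% of all genes) and a median of 0.10. Neither had a member past 1.5-fold: 0 were higher in T-like cells (4.24% of all genes) and 0 lower (5.32%), and in B-like cells 0 were higher (4.24%) and 0 lower (5.59%). Over the 6 classes, 18 members were above 1 in each and 1, Rps27rt, was below 1 in each, again without a joint count over all genes. The LEC-like, VEC-like and AEC-like comparisons used separate cells of the same 2 libraries, so they do not replicate each other.

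**Figure D3:**
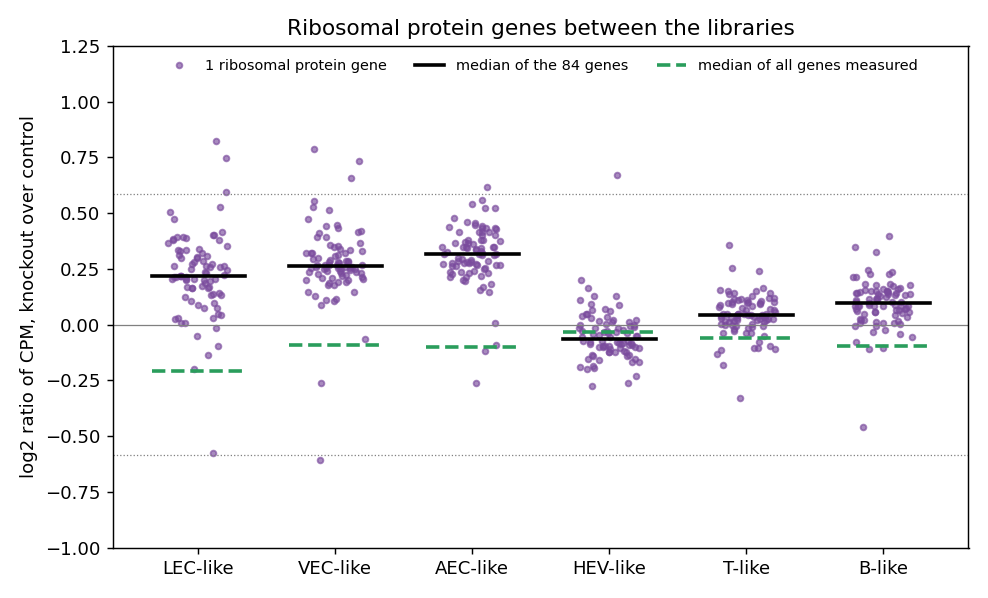
log2 ratio of CPM, knockout over control library (y axis), of the 84 ribosomal protein genes in 6 cell classes. Each point is 1 gene, the black line the median of the genes, the dashed green line the median of all genes measured and the dotted lines 1.5-fold, and the black line lies at 0.22, 0.27 and 0.32 in LEC-like, VEC-like and AEC-like cells and at -0.06 in HEV-like cells.

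The widest differences were in small subunit members. Rps28, a protein of the 40S head, was at 1190 CPM in the LEC-like cells of the control and at 2106 CPM in those of the knockout library, a ratio of 1.77 (1.69 to 1.86). In VEC-like cells it was at 1023 and 1768 CPM (1.73) and in AEC-like cells at 908 and 1266 CPM (1.39). HEV-like cells had 1615 and 1808 CPM, T-like cells 3170 and 3239 CPM and B-like cells 2604 and 2757 CPM. The LEC-like level of the knockout library was thus above both HEV-like levels. The ratio was 1.70, 2.04 and 1.51 in the 3 LEC-like clusters. In the annotation the gene overlaps Kank3 on the other strand.

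Rps26, which lies at the mRNA exit of the 40S subunit, differed mainly in LEC-like cells. It was at 1312 and 2205 CPM there, a ratio of 1.68 (1.61 to 1.76), against 1.23 in VEC-like, 1.21 in AEC-like, 0.99 in HEV-like and 1.03 in T-like cells. Within the LEC-like class the ratio was 1.67 and 2.02 in the 2 larger clusters and 0.98 in the smallest. As a share of all member UMIs, Rps26 made up 0.82% and 1.15% in LEC-like cells and 1.12% and 1.11% in T-like cells.

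Rps6 encodes the 40S protein that S6 kinase phosphorylates downstream of mTORC1. It was at 1489 and 2353 CPM in VEC-like cells, a ratio of 1.58 (1.51 to 1.66). LEC-like cells had 1260 and 1817 CPM (1.44) and AEC-like cells 1188 and 1752 CPM (1.48). In HEV-like cells it was at 1791 and 1956 CPM (1.09), and in T-like and B-like cells the ratios were 0.97 and 1.01. The counts measure its mRNA and say nothing of phosphorylation.

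Rpl23, a 60S protein that also binds Mdm2, was the large subunit member past the fold, at 3541 and 5355 CPM in LEC-like cells (1.51; 1.47 to 1.56). Its ratio was 1.44 in both VEC-like and AEC-like cells, 1.05 in HEV-like, 1.09 in T-like and 1.10 in B-like cells. The letters CACGTG lie within its window printed above. The other 5 members with these letters in the promoter had LEC-like ratios of 1.24 (Rps19), 1.27 (Rpl19), 1.22 (Rpl13a), 1.15 (Rpl34) and 0.96 (Rpl14), which lie on both sides of the 1.19 of the summed share. Rps3a1, a 40S protein, was past the fold in AEC-like cells at 1935 and 2969 CPM (1.53; 1.46 to 1.61). It was also higher in the lymphocytes, with ratios of 1.28 in T-like and 1.32 in B-like cells, whereas Rps28 and Rps6 there lay between 0.97 and 1.06.

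Members with further roles ranged around the ratio of the summed share. Rpl5 and Rpl11, which join the 5S RNA and can bind Mdm2 when ribosome assembly fails, had ratios of 1.005 and 1.05 in LEC-like cells and 1.16 and 1.20 in AEC-like cells. Rps19, mutated in Diamond-Blackfan anemia, was at 2485 and 3090 CPM in LEC-like cells (1.24). Rpl38, known for its part in translating Hox mRNAs, was at 1166 and 1398 CPM (1.20). The stalk proteins Rplp0, Rplp1 and Rplp2, which recruit the elongation factors, had ratios of 1.20, 1.30 and 1.21 in LEC-like cells and of 0.98, 1.01 and 0.97 in HEV-like cells. Rpsa, the 40S protein also described as a laminin receptor, was at 1963 and 2166 CPM in LEC-like cells (1.10) and at 3988 and 3488 CPM in HEV-like cells (0.87).

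Across cell classes, most members were higher in the lymphocytes and in HEV-like cells than in LEC-like cells, and lower in AEC-like cells. Per member, T-like cells were higher than LEC-like cells in both libraries for 81 of 84 (28.2% of all genes) and lower for 3 (59.2% of all genes). The 3 exceptions were Rps27l, Rpl7l1 and Rps19bp1. B-like cells were higher than LEC-like cells for 81 members (32.1% of all genes) and lower for 2, Rps27l and Rpl7l1 (55.9% of all genes). HEV-like cells were higher for 75 (37.1% of all genes) and lower for 1, Rpl7l1 (39.5% of all genes). AEC-like cells were higher than LEC-like cells for 3, Rplp1, Rpl37 and Rps27rt (31.3% of all genes), and lower for 70 (45.4% of all genes).

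T-like cells held the highest level of the 6 classes for 78 members in the control (11.4% of all genes) and 77 in the knockout library (12.4%). AEC-like cells held the lowest for 73 (18.8% of all genes) and 69 (16.7%). The class at each end was the same in both libraries for 67 members, a count that was not made over all genes. The median member varied 2.78-fold from its lowest to its highest class in the control and 2.33-fold in the knockout library. Once each member was expressed as a part of all member UMIs, the median range shrank to 1.30-fold and 1.33-fold, so most of the variation over classes was common to the members.

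Levels of the single members spanned a wide range. Rps24, Rps20, Rplp1 and Rpl23 were among the members with the most UMIs, and the 5 highest held 11.4% and 11.3% of all member UMIs. Rps24, a 40S protein, was at 8674 CPM over all control cells and 7210 CPM over all knockout cells. It was at 3837 and 4593 CPM in LEC-like, 6309 and 5887 CPM in HEV-like and 11567 and 11953 CPM in T-like cells. Of the 84 members 76 were above 1000 CPM over all control cells and 75 over all knockout cells. The 5 lowest were Rps19bp1 (26.8 and 27.0 CPM), Rpl7l1 (58.1 and 63.4 CPM), Rpl6l (93.7 and 76.4 CPM), Rps27l (143 and 285 CPM) and Rps27rt (320 and 196 CPM).

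Rpl12, a 60S protein at the base of the stalk, had the widest range among members highest in lymphocytes. It was at 6560 and 6512 CPM in T-like and 4900 and 5108 CPM in B-like cells, against 1362 and 1659 CPM in LEC-like and 1089 and 1441 CPM in AEC-like cells. This is a range of 6.03-fold in the control and 4.52-fold in the knockout library. Rps26 spanned 5.26-fold and 4.50-fold and Rpsa 4.61-fold and 3.97-fold, from AEC-like to T-like cells in each case. Rps15a, Rps10, Rplp0, Rpl39, Rps24 and Rpl13a ranged between 3.24-fold and 4.35-fold. At the other end, Rpl10, which joins the 60S subunit late in its maturation, spanned 2.07-fold and 1.57-fold and was highest in HEV-like and not in T-like cells, at 3865 and 4031 CPM against 3287 and 3627 CPM. It was higher still in innate lymphoid-like cells, at 5162 and 5057 CPM.

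**Figure D4:**
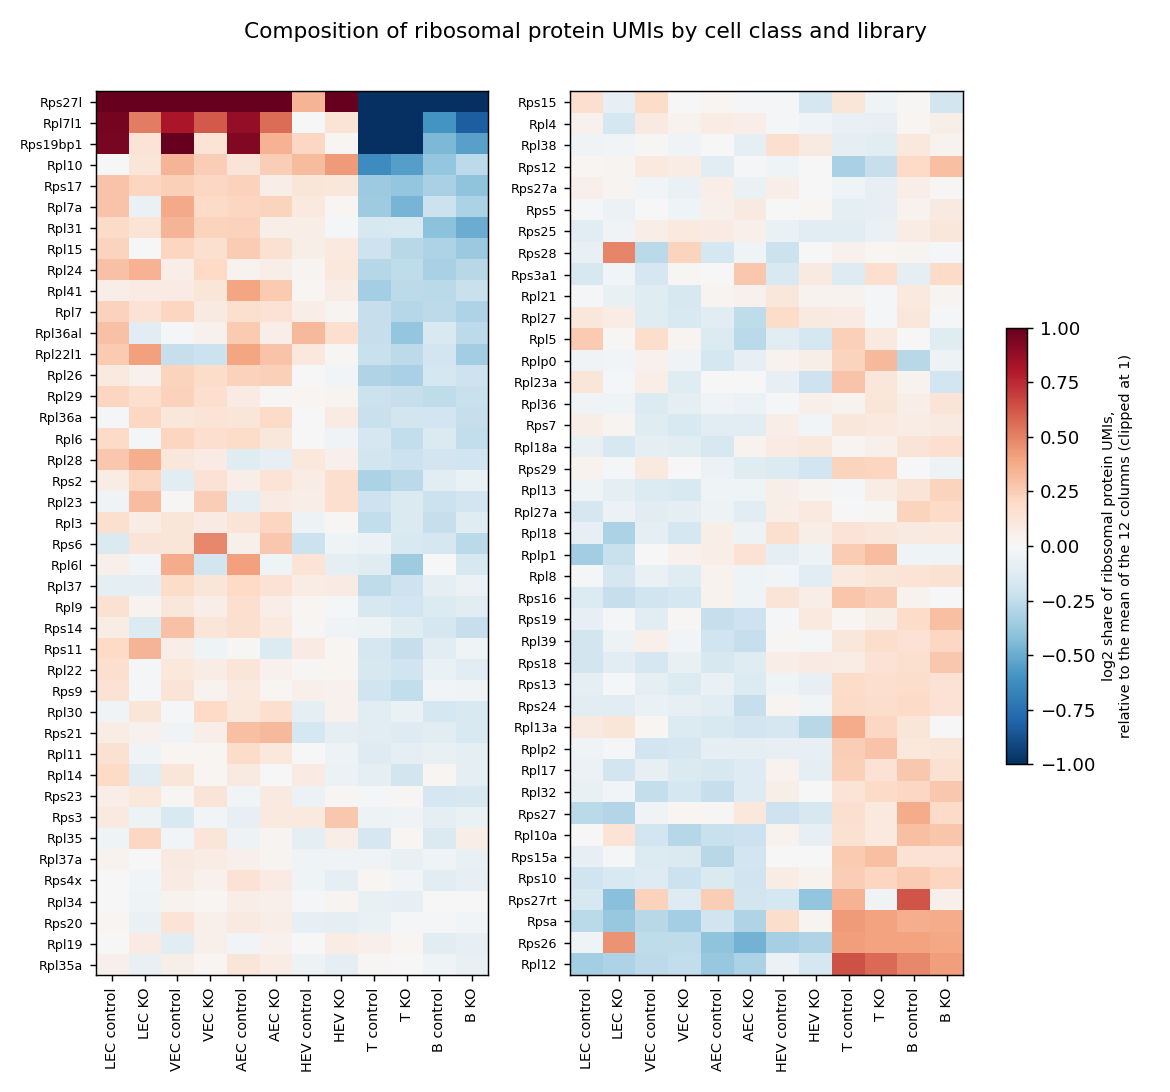
Composition of the ribosomal protein UMIs. Rows are members, columns the 6 classes in both libraries, and colour is the log2 share of a member among all member UMIs relative to its mean over the 12 columns, clipped at 1. Rps27l, Rpl7l1 and Rps19bp1 hold larger shares in endothelial cells, and Rpl12 and Rpsa in T-like and B-like cells, whereas Rps26 is high in T-like and B-like cells (1.11% and 1.10% in the knockout library) and in LEC-like cells of the knockout library (1.15%).

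Near copies of ribosomal protein genes and Rps19bp1, together 7 of the members, held only 0.805% and 0.840% of member UMIs. The 3 members lower in T-like than in LEC-like cells, Rps27l, Rpl7l1 and Rps19bp1, were all among them. Rps27l, a paralog of Rps27 that p53 induces, ran opposite to most members. It was at 343 and 407 CPM in LEC-like, 293 and 488 CPM in VEC-like and 260 and 415 CPM in HEV-like cells. In T-like cells it was at 47.7 and 56.3 CPM and in B-like cells at 72.6 and 71.5 CPM. The knockout over control ratio was 1.67 in VEC-like (interval from 1.4996 to 1.86) and 1.59 in HEV-like cells (1.49 to 1.71), where it was the member past the fold, and 1.19 in LEC-like cells. Rps27 itself was at 1587 and 1866 CPM in LEC-like and 5252 and 5240 CPM in T-like cells. Rps27rt, a further copy, followed the lymphocyte pattern at 118 and 117 CPM in LEC-like and 409 and 326 CPM in T-like cells. Its ratio was 0.80 in T-like and 0.73 in B-like cells, the lowest of these copies in lymphocytes.

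The start sites of this family are printed because the members differ in them by the same definition. Rps27 lies at chr3:90213634-90213663 on the minus strand, Rps27rt at chr9:114982725-114982754 on the minus strand and the first annotated start of Rps27l at chr9:66946071-66946100 on the plus strand. Capitals again mark the pyrimidine run, which Rps27 and Rps27rt had and Rps27l did not have in this window.
Rps27: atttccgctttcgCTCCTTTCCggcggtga
Rps27rt: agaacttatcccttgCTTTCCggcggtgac
Rps27l: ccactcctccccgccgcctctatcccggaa

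The other pairs showed both patterns. Rpl22l1, the paralog of Rpl22, was at 678 and 898 CPM in LEC-like, 475 and 589 CPM in VEC-like and 1193 and 1205 CPM in T-like cells, and Rpl22 at 1291 and 1362, 1217 and 1464, and 2521 and 2557 CPM. Rpl7l1, which acts in ribosome assembly, was at 87.5 and 76.7 CPM in LEC-like and 41.1 and 37.4 CPM in T-like cells, whereas Rpl7 was at 2085 and 2344 CPM and at 3714 and 3721 CPM. Rpl36al was at 567 and 516 CPM in LEC-like and 965 and 902 CPM in T-like cells. Rps19bp1 was the member past the fold in the lower direction in VEC-like cells, at 36.7 and 24.2 CPM on 55 and 76 UMIs (0.66; 0.46 to 0.95). Copies of such similar sequence may exchange reads in the alignment, and 35 members overlap another gene on the same strand and 24 a gene on the other strand, so the values of single copies are uncertain.

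**Figure D5:**
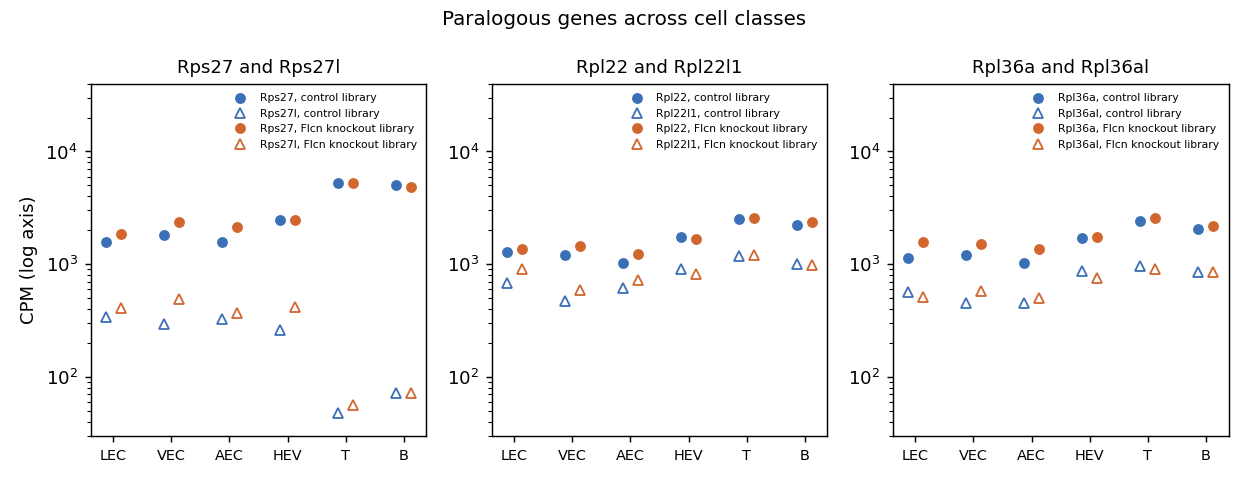
Levels (CPM, log axis) of paralogous ribosomal protein genes in the 6 classes, filled circles for the first named gene and open triangles for the second, in both libraries. Rps27l lies at 343 and 407 CPM in LEC-like and 47.7 and 56.3 CPM in T-like cells, while Rps27 lies at 1587 and 1866 CPM and 5252 and 5240 CPM.

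Since the libraries differed in sex, the 4 X-linked members (Rps4x, Rpl10, Rpl36a and Rpl39) were set beside the other 80. Their median log2 ratio, knockout over control, was 0.38 against 0.22 in LEC-like cells, 0.23 against 0.27 in VEC-like cells and 0.36 against 0.32 in AEC-like cells. It was -0.01 against -0.07 in HEV-like cells and 0.11 against 0.04 in T-like cells. In B-like cells the X-linked median was 0.17 against 0.09. Leaving out only 4 members could hardly move a median, so the medians of the other 80 cannot show whether sex played a part. The part of sex in the values of these other members was not tested.

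The balance of the subunits was narrow over LEC-like, VEC-like and AEC-like cells. Summed small over large subunit UMIs were 0.829 in control and 0.840 in knockout LEC-like cells, 0.829 and 0.840 in VEC-like cells, and 0.830 and 0.828 in AEC-like cells. HEV-like cells had 0.829 and 0.838 and capillary endothelial-like cells 0.829 and 0.827. Proliferating endothelial-like cells were higher at 0.838 and 0.852, and unnamed endothelial cells at 0.860 and 0.862. Lymphocytes had relatively more small subunit UMIs, 0.876 and 0.875 in T-like and 0.892 and 0.889 in B-like cells. Innate lymphoid-like cells, at 0.812 and 0.814, were below the endothelial classes.

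Genes that belong to the ribosome or its mRNA class under other symbols lay near the members. Fau, which encodes a 40S protein fused to a ubiquitin-like part, had log2 ratios of 0.22 in LEC-like, 0.33 in VEC-like, 0.33 in AEC-like and -0.06 in HEV-like cells. Rack1, a 40S scaffold protein, had 0.05, 0.21, 0.39 and -0.12. Of 19 translation factors with TOP mRNAs, 15 were above a ratio of 1 in LEC-like, 17 in VEC-like, 19 in AEC-like and 10 in HEV-like cells, and their median log2 ratios were 0.14, 0.23, 0.33 and 0.03. The shares of all genes above 1 in these classes were 32.2%, 41.7%, 40% and 45.8%. Past 1.5-fold, 1, 1, 4 and 1 of the 19 were higher, where 7.61%, 8.31%, 7.26% and 6.11% of all genes were, and 0 lower, so the counts of 1 are near the share of all genes. The X-linked Eif2s3x, a subunit of initiation factor eIF2, was past the fold in each of these classes. It was thus the gene past the fold in LEC-like, VEC-like and HEV-like cells. The libraries differed in sex, and the part of sex in the Eif2s3x values was not tested. The elongation factor Eef1a1 was at 5209 and 5760 CPM in LEC-like and 4266 and 6442 CPM in AEC-like cells.

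Genes that build ribosomes lay closer to all genes than the members did. Of the ribosome biogenesis list, 7 of 25 measured genes were above 1 in LEC-like, 13 of 23 in VEC-like and 7 of 22 in AEC-like cells, where 32.2%, 41.7% and 40% of all genes were. Their median log2 ratios were -0.11, 0.01 and -0.08, against -0.21, -0.09 and -0.10 for all genes and 0.22, 0.27 and 0.32 for the members. Past the fold 0, 2 and 1 were higher (7.61%, 8.31% and 7.26% of all genes) and 1, 0 and 0 lower (21.8%, 14.8% and 12%). Of the mitochondrial ribosomal proteins, which build a separate ribosome, 30 of 76 were above 1 in LEC-like, 47 of 75 in VEC-like and 27 of 72 in AEC-like cells. Their summed ratios were 0.984, 1.08 and 0.954, against 1.19, 1.23 and 1.27 for the cytosolic members.

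In the mTORC1 list the genes past 1.5-fold pointed both ways. In LEC-like cells 4 of 17 were higher (7.61% of all genes) and 4 lower (21.8%), and in VEC-like cells 5 of 14 were higher (8.31%) and 1 lower (14.8%). In AEC-like cells 3 of 14 were higher (7.26%) and 2 lower (12%), and in HEV-like cells 4 of 17 were higher (6.11%) and 1 lower (7.22%). In T-like and B-like cells 0 of 16 were higher (4.24% in each) and 2 and 1 lower (5.32% and 5.59%). Rragc, which encodes RagC, was at 68.6 and 164 CPM in LEC-like cells, with log2 ratios of 1.03 in VEC-like, 0.99 in AEC-like and 0.93 in HEV-like cells. In T-like and B-like cells these ratios were -0.25 and 0.06. Unlike the members, Rragc was thus about as much higher in HEV-like as in AEC-like cells. Rragd had 5 UMIs in control and 336 in knockout LEC-like cells, or 3.15 and 42.5 CPM. Tfeb was lower in each of the 6 classes, at 79.3 and 33.4 CPM in LEC-like and 10.6 and 6.00 CPM in T-like cells. Larp1 was at 40.9 and 40.0 CPM in LEC-like cells.

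Over the 18 points of 9 classes in both libraries, most members followed the summed share, and 13 had a Pearson correlation of log2 CPM with it below 0.9. The 3 closest were Rpl35a (0.997), Rpl12 (0.995) and Rpl8 (0.993), and the farthest included Rpl10 at 0.59, Rps19bp1 at -0.49, Rpl7l1 at -0.77 and Rps27l at -0.90. Among 1548 other genes at 200 CPM or more in a class, the closest were Gm9493 (0.97), Gm10073 (0.96) and Gm8730 (0.95), of which Gm9493 and Gm8730 are annotated as processed pseudogenes. Wdr89 (0.95), the chemokine receptor gene Ccr7 (0.95), Gm11808 (0.94), Cd2 (0.94), Gm8369, Gm9843 and Xrn2 (0.93 each) came next. These points share libraries and the lymphocyte and endothelial split, so the values are descriptions.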

How the data were processed

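CD31+ mesenteric cells of 1 control and 1 Flcn knockout library (3 pooled mice each) were analysed. The authors made the deposited UMI count matrices with Cell Ranger 3.0 from Chromium 3′ v3 reads aligned to mm10, and the filtered matrices held whole, unnormalised counts. Depth was 64639756 and 60805779 UMIs. Of 28692 gene identifiers 28339 were in GENCODE M21, and all 84 members were. Rack1 was listed as Gnb2l1 and matched by identifier.

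The members, the gene lists and the tests were chosen with earlier results of these data known. Cells of both libraries were integrated and clustered with Seurat 5.3.0 (R 4.3.3; 2000 variable features, 30 dimensions, resolution 0.8), giving 22 clusters, 6 of them endothelial (at least 7 of 10 endothelial markers in 20% of cells). The endothelial cells were clustered again into 14. A name needed 3 markers at 2-fold and in 10% of cells, thresholds set after the clusters were seen, and 20 clusters were named and 10 not. Unnamed clusters are given no name here. Doublets called with Scrublet (scanpy 1.11.5; 142 control cells, 2.08%, and 37 knockout cells, 0.830%) stayed in, as did 503 and 421 cells below 1000 UMIs or above 10% mitochondrial reads. Both were left out as alternatives.

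Python 3.11.15 (numpy 2.4.6, scipy 1.17.1, pandas 2.3.3, matplotlib 3.10.9) summed counts per class and library. Shares carry exact Clopper-Pearson intervals and ratios exact conditional intervals at 95%. The 1.5-fold rule used genes with at least 50 summed counts and was tested on simulated data. With 1 library per group no count model was fitted. Genes were named by this rule: the 5 highest and 5 lowest members, the 10 with the widest range over classes, members past 1.5-fold, paralogs, X-linked members, stalk proteins, a short list of members with known other roles, genes of the pathway lists and the 10 genes most like the summed share. Members with the flattest range, those closest to the summed share, those below a ratio of 1, those with E-box letters, and Rragc, Rragd, Tfeb, Larp1 and Eif2s3x were named after their values were seen. Single values of some genes that this rule names are not reported here. Start-site windows come from RefSeq promoters (GRCm38.p6). Alternatives changed the cell filter, doublets, integration, resolution, features, totals, fold, counts added, count minimum and depth window, and 1 chosen after seeing the data left out endothelial cells with a lymphocyte UMI.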

Additional observations from a re-analysis of the deposited data

Results flagged for a closer look

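The pooled share of UMIs on ribosomal protein genes was higher in the knockout library in some classes and lower in others. The knockout over control ratio was 1.19 in LEC-like, 1.23 in VEC-like and 1.27 in AEC-like cells, and 0.971 in HEV-like and 0.550 in erythroid-like cells. With 1 library per group the difference between classes was not tested. In erythroid-like cells (34 and 56) the median cell was at 0.36% and 0.35%, and hemoglobin genes took 89.8% and 93.4% of the UMIs.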

How the results depend on the processing

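No paired analysis was possible because there is 1 library per group. The ratio of the share stayed above 1 in LEC-like, VEC-like, AEC-like, T-like and B-like cells under every alternative that gave a value. HEV-like cells gave 1.01 at 3000 to 30000 UMIs per cell, the reverse of 0.971, and 0.997 as a mean of single cells. VEC-like cells gave no value at resolution 0.4 and without integration, where a library held too few of them, and HEV-like cells none without lymphocyte UMIs (13 control cells). Where a result moved, the cause was not tested.

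By setting, the ratios that moved beyond their counting interval were as follows. The cell filter gave 1.08 in B-like cells. Without doublets T-like cells gave 1.04, B-like cells 1.09 and T over LEC 2.47 in the control and 2.14 in the knockout library. Without integration LEC-like cells gave 1.22, T-like cells 1.04, T over LEC 2.49 and 2.12, and the T-like subunit ratio 0.878 and 0.877. Resolution 0.4 gave 1.20 (LEC), 1.255 (AEC), 0.974 (HEV), 1.04 (T), 1.08 (B) and 2.12 for T over LEC in the knockout library. Resolution 1.6 gave 1.20 (LEC), 1.26 (VEC), 1.20 (AEC) and 0.938 (HEV). All variable features gave 1.26 (AEC), and totals without mitochondrial and hemoglobin genes 1.23 (VEC) and 1.08 (B). The mean of single cells gave 1.20 (LEC), 1.32 (AEC), 1.04 (T), 1.10 (B) and T over LEC 2.50 and 2.18. Cells of 3000 to 30000 UMIs gave 1.23 (LEC) and T over LEC 2.62 and 2.22. Without lymphocyte UMIs, chosen after seeing the data, LEC-like cells gave 1.23 and AEC-like cells 1.31.

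Counts of members past the fold depended on the fold. At a difference of 25% in place of 1.5-fold, 21 (LEC), 22 (VEC), 40 (AEC), 1 (T) and 3 (B) members were higher (14.2%, 17.2%, 16.4%, 11.9% and 10.3% of all genes), and 1 each in LEC-like, T-like and B-like cells lower (40.4%, 17.8% and 20.03%). At 2-fold 0 were higher in LEC-like, VEC-like, AEC-like and HEV-like cells (3.71%, 3.16%, 2.50% and 2.01% of all genes). At this fold 0 were lower in VEC-like cells (4.58% of all genes). Centred on the median of all genes (a shift of 0.21 in LEC-like and 0.10 in AEC-like cells on the log2 scale), 15 (LEC), 6 (VEC) and 5 (AEC) were higher. Of all genes, 12.3%, 10.6% and 9.95% were higher in these classes. In VEC-like cells 0 members were lower (11.3% of all genes). CPM over the UMIs of other genes gave 5 (VEC) and 4 (AEC) higher (9.87% and 8.83% of all genes) and 0 lower (VEC, 12.1%). With 200 summed counts or resolution 1.6, 0 were lower in VEC-like cells (11.3% and 14.4% of all genes). At resolution 1.6, 0 were higher in AEC-like cells (6.26% of all genes). With 5 counts added, without integration and at resolution 1.6, 1 was lower in LEC-like cells (27.8%, 23.0% and 22.1% of all genes).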
